A study of Mus musculus with 2 samples.

Results

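The regions described here are pairs of neighbouring H3K9me3 peaks separated by a stretch of a few kilobases that holds no peak of the authors' replicated list. They were selected on the authors' replicated peak list, on chromosomes 1 to 19 of mm10, by width and spacing: both peaks had to be at least 800 bp wide, and the gap from the end of the first to the start of the next had to be 4000 to 8000 bp. Of 118980 consecutive peak pairs, 11276 joined peaks that were both at least 800 bp wide, and 1199 of these met the gap rule. The 1199 pairs used 2362 distinct peaks as flanks, because 36 peaks were the right flank of one pair and the left flank of the next. Peak positions and widths therefore chose the members, and gap lengths, widths and the strengths that go with width are given as descriptions.

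The peaks came from H3K9me3 chromatin immunoprecipitation sequencing of E14TG2a.4, a male mouse embryonic stem cell line of strain 129/Ola, labelled embryonic with an age of 3.5 day. The 2 biological replicates formed 1 group with no treatment named, and both came from the same line. No control library was analysed, and the deposited peak lists hold no reads, so the depth behind each peak is unknown.

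H3K9me3 is a histone mark of silent chromatin. In mouse embryonic stem cells it is laid down by SETDB1, which TRIM28 and KRAB zinc finger proteins bring to endogenous retroviruses. A full-length endogenous retrovirus carries its coding part between a pair of long terminal repeats that read in the same direction and are nearly identical when the copy is young. Intracisternal A-particle elements are a mouse family of this kind that is known to carry H3K9me3 in these cells. No repeat annotation was used here, so no sequence below is assigned to a family.

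The gaps cannot be read as sequence from mm10, whose genome was not used here, but some hold the start of a RefSeq transcript whose promoter sequence is given on GRCm38.p6, the mm10 assembly. Of the promoters on the chromosomes used, 41 started inside a gap of a pair and 45 inside a flank. They were compared with direct repeats found in mm9, an older assembly. A direct repeat here is a near-identical sequence of 200 to 1500 bp that occurs again in the same direction 3000 to 10000 bp further on. In 992 of them the distance between the starts of both copies was 6600 to 6899 bp. The promoters of Gm30618 and Gm29709 are shown because they lie at pairs with a gap of 6800 to 6999 bp, the length at which the pairs were most frequent, and share every 16-base word with these repeats. RefSeq promoters at pairs of this length numbered 11, 4 in gaps and 7 in flanks. Only 16-base words present in at least 10 of the 992 repeats were counted. By this count the other 9 promoters shared none with the repeats. The last sequence is the copy of 1 such repeat. In the promoters, capitals mark bases inside the gap. In the repeat copy, capitals mark the stretch identical to the Gm29709 promoter.

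Gm30618 promoter, chr10:30819435-30819734, plus strand: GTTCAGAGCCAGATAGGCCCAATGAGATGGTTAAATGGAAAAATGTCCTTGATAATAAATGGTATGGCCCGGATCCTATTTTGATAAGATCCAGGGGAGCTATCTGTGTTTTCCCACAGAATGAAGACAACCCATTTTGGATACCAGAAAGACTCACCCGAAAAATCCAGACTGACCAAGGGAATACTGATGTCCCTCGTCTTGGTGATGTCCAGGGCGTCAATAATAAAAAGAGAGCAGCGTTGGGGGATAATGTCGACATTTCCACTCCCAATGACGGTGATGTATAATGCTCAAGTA
Gm29709 promoter, chr12:85407854-85408153, plus strand: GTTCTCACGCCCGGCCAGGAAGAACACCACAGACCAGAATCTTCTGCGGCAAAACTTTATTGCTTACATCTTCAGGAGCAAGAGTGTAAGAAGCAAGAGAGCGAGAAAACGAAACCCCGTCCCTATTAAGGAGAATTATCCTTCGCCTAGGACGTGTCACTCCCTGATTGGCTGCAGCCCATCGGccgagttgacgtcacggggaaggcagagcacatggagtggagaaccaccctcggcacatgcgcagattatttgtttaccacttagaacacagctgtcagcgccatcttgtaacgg
Repeat copy, bases 38 to 337, chr1:6420499-6420798 of mm9, plus strand: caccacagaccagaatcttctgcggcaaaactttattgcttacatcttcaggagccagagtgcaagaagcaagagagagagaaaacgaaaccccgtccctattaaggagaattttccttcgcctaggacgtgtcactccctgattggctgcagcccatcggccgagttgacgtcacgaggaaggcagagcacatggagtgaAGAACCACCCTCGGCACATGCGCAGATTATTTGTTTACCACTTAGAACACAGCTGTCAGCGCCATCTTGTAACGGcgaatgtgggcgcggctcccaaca

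The Gm29709 promoter crossed the right edge of a gap of 6931 bp, with 185 bases in the gap and 115 in the right flank. By the count above, all of its 16-base words were shared with the copies, and none with the inner parts, of the 992 repeats. Its longest exact match to the repeat copy printed above was 75 bases, at bases 239 to 313 of a copy of 337 bases. The gap of this pair thus ended within sequence of the repeated kind, and the flank began in it. The weaker flank had a fold enrichment of 17.4. The Gm30618 promoter lay wholly inside a gap of 6856 bp whose weaker flank had a fold enrichment of 16.5. All of its 16-base words were shared with the inner parts of the repeats and none with their copies. In a row, 185 of its bases matched, on the opposite strand, the inner part of the repeat printed above. The 300-base promoters of Gm30618 and Gm29709 occurred without a mismatch at 14 and 17 places in mm9, respectively. Both genes are annotated by RefSeq under identifiers with no named function.

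The printed repeat spans chr1:6420462-6427566 of mm9, 7105 bp in all, with its copies starting 6768 bp apart. The 300 bases from the start of each copy were identical, and the mm9 regions of both replicates covered 100% of the whole element. It is an example of the repeats in mm9 and was not matched to a pair.

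Of the 41 promoters in gaps, 5 (12.2%, exact 95% interval 4.08 to 26.2%) had at least 50% of their 16-base words in the copies or inner parts of the 992 repeats. The share over all 31396 promoters was 0.258%, and 4 of 435 promoters in gaps of the same length between other consecutive peaks had it (0.920%). Besides Gm30618, these were B230220B15Rik, with 94.4% of its words in a gap of 5145 bp, 2 promoters of Gm33539, with 88.1% and 56.1% in a gap of 4621 bp, and Gm31630, with 66.3% in a gap of 5934 bp. For Gm31630 the longest exact match to the printed example was 11 bases, so its words came from other members of the 992. Among promoters in flanks, Gm29709 was the 1 of 45. These promoters were named after their values were seen. The 41 gap promoters came from 38 genes, and the 2 of Gm33539 lay in 1 gap. The interval treats such promoters as separate.

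The gap lengths of the pairs were concentrated at one value. Of the 1199 pairs, 225 had a gap of 6800 to 6999 bp, which is 18.8% (exact 95% interval 16.6 to 21.1%, counting error only). The other bins of 200 bp between 4 and 8 kb held 25 to 72 pairs, with a median of 51, so the fullest bin held 4.41 times the median. The neighbouring bins held 51 pairs at 6600 to 6799 bp and 66 at 7000 to 7199 bp. In bins of 20 bp, counts rose from 8 at 6800 to 6819 bp to 33 at 6860 to 6879 bp and 32 at 6900 to 6919 bp, and fell to 11 at 6980 to 6999 bp. The range 6800 to 6999 bp was chosen after the gaps were seen.

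Other consecutive peaks, of which at least 1 was under 800 bp wide, showed no concentration of that size. In each set of them another bin held more, at a shorter gap. Counts tended to fall with gap length, so a fuller bin at a shorter gap does not exclude a smaller local rise. Gaps of 4 to 8 kb made up 10.6% of the wide pairs (10.1 to 11.2%) and 8.17% of the others, 8803 of 107704. Of those 8803 gaps, 490 were 6800 to 6999 bp long, or 5.57%, against 18.8% of the pairs. Where 1 of both peaks was wide, the bin held 233 gaps against a median of 190 in the other bins and a highest count of 237. That was 0.494% of all consecutive peaks of this set, against 0.384% and 0.422% in the bins on either side, a smaller local rise. Where both peaks were narrow the bin held 257 against 245, and another bin held 295. As shares of that set, the bin held 0.425% and its neighbours 0.400% and 0.403%. The gap range itself is the rule, so its limits carry no finding: the 5 pairs just inside 4000 bp had gaps of 4003 to 4017 bp and the 5 consecutive wide peaks just outside 3992 to 3995 bp. At the upper limit the 5 inside had 7973 to 7994 bp and the 5 outside 8008 to 8033 bp, and at the width limit the 5 inside had a narrower flank of 800 to 801 bp and the 5 outside 797 to 799 bp.

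**Figure D1:**
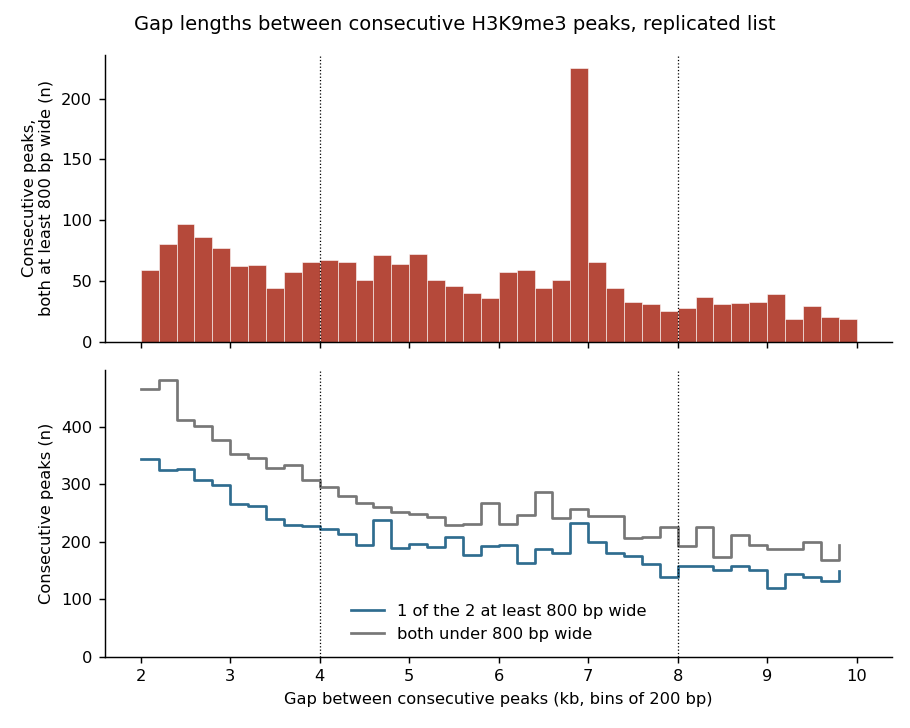
Number of consecutive peaks by gap length in bins of 200 bp, for peaks that were both at least 800 bp wide (upper panel, bars) and for the others (lower panel, lines), with dotted lines at 4 and 8 kb. The bin at 6800 to 6999 bp holds 225 wide pairs, and the other bins between the dotted lines hold 25 to 72.

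The share of gaps in this bin rose with the width of the narrower peak. Among gaps of 4 to 8 kb it was 5.19% where the narrower peak was under 400 bp and 6.16% at 400 to 799 bp. It was 11% at 800 to 1199 bp, 19.9% at 1200 to 1599 bp and 29.9% at 1600 to 2399 bp. Where both peaks were at least 2400 bp wide it was 40%, or 52 of 130 pairs (exact 95% interval 31.5 to 49.0%). Gaps of 4 to 8 kb as a whole made up 31.2% of consecutive peaks in that widest range, against 8.42% at 800 to 1199 bp.

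The concentration was present in each replicate's own peak list. Pairing by the same rule gave 418 pairs in the replicate 1 list, of which 115 (27.5%) had a gap of 6800 to 6999 bp, and 612 pairs in the replicate 2 list, of which 162 (26.5%) did. The median of the other bins was 14 in replicate 1 and 22 in replicate 2. The same bin was the fullest in both, although replicate 1 also held 54 pairs at 7000 to 7199 bp. The pooled list gave 803 pairs, with 197 in the bin.

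**Figure D2:**
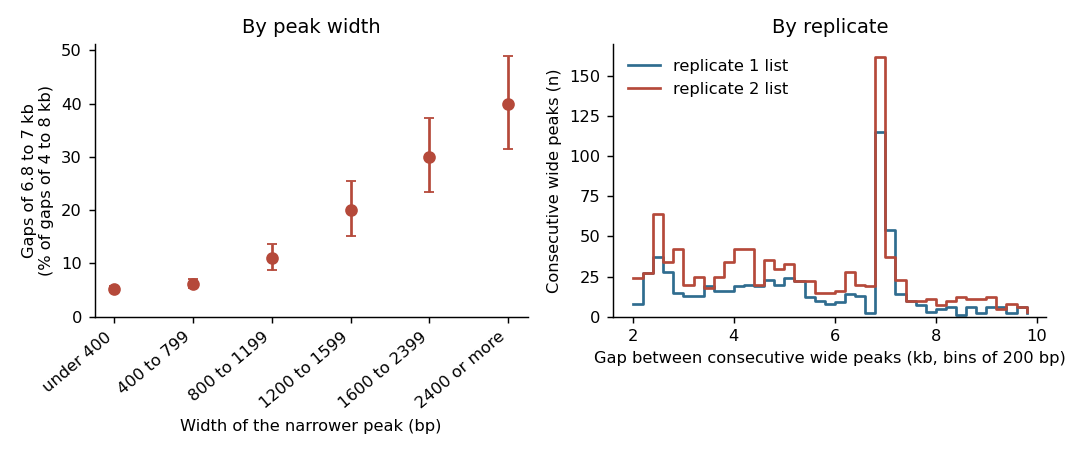
Left, the percentage of gaps of 4 to 8 kb that were 6800 to 6999 bp long, by the width of the narrower peak, with exact 95% intervals, rising from 5.19% to 40%. Right, the number of consecutive wide peaks by gap length in bins of 200 bp in each replicate's own list, with 115 pairs (replicate 1) and 162 pairs (replicate 2) in the bin at 6800 to 6999 bp.

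The flanks of the 6800 to 6999 bp gaps had higher fold enrichments than those of the other pairs. Fold enrichment is the authors' value for each peak, on a linear scale whose reference the sources used here do not name. Over all flanks the median was 8.35, against 6.60 for all 34873 wide peaks and 4.20 for all 118999 peaks. It was 14 for flanks of the 6800 to 6999 bp gaps (quartiles 10.1 and 17.4) and 7.55 for the other pairs (5.27 and 11.8). The weaker flank of the pair had a median of 12.2 against 5.94, and was at least 10 in 153 of 225 pairs (68.0%) against 214 of 974 (22%). The bins on either side had weaker flanks of 5.27 and 7.88. These flanks were also wider, with a median of 2136.5 bp against 1387 bp.

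Strength and width went together. Among pairs whose narrower flank was 800 to 1199 bp wide, the weaker flank had a median of 8.40 in 71 pairs with a gap of 6800 to 6999 bp and 4.95 in 575 others. At 1200 to 1599 bp the medians were 12.2 and 6.75. At 1600 to 2399 bp they were 12 and 10.3, and from 2400 bp 15.4 (quartiles 13.2 and 17.4) and 14 (11.6 and 17.5). The quartile ranges overlapped in each width range. With pairs formed in the replicate 1 list alone, the medians were 8.55 and 7.91, a ratio of 1.08 against 2.05 in the replicated list.

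**Figure D3:**
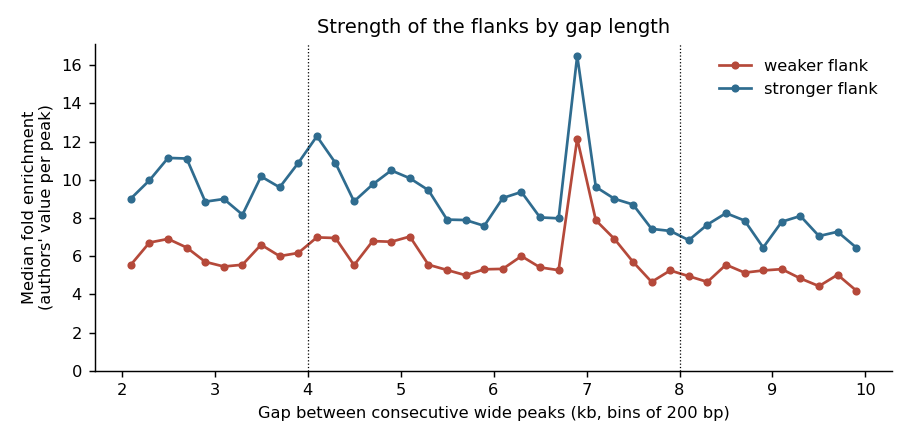
Median fold enrichment of the weaker and the stronger flank of consecutive wide peaks, by gap length in bins of 200 bp, with dotted lines at 4 and 8 kb. Both lines reach their highest point at 6800 to 6999 bp, 12.2 for the weaker flank and 16.5 for the stronger.

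At the members' flanks the peaks of both replicates gave higher values for the 6800 to 6999 bp gaps. Each value is the highest fold among the replicate's peaks that overlap the flank. Wider flanks can overlap more peaks, and the part of width was not tested. The median was 9.30 in replicate 1 and 15.6 in replicate 2, or 12.4 ± 4.45 (SD, n = 2). For the other pairs it was 5.72 and 8.23, or 6.97 ± 1.77 (SD, n = 2). Replicate 2 was higher at 90.8% of the 2379 flanks overlapped by peaks of both replicates.

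The flanks of a pair resembled each other. Left and right flanks had median folds of 8.25 and 8.40, and the left was the stronger in 50% of pairs. Across the 1199 pairs, which share peaks and a library, the left and right folds had a Spearman correlation of 0.62. It was 0.07 across the 3244 consecutive wide peaks more than 8 kb apart and 0.19 across the 6833 less than 4 kb apart. The stronger flank was within 1.5 times the weaker in 61.6% of pairs, against 56.7% over 8 kb and 51.2% under 4 kb.

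Within the flanks of these gaps the strongest position lay more often on the gap side of the peak's midpoint. The summit, the position of greatest enrichment within a peak, lay on the gap side of the peak's midpoint in 353 of the 450 flanks of 6800 to 6999 bp gaps (78.4%). The share was 57.0% in the other pairs and 43.6% in wide consecutive peaks over 8 kb apart. Both summits of a pair lay on the gap side in 149 of 225 pairs (66.2%) against 35.5% of the other pairs and 18.8% over 8 kb. The next bin, 7000 to 7199 bp, was intermediate, with 68.2% of summits on the gap side, and wide peaks under 4 kb apart had 58.3%. The median summit was 529 bp from the gap edge in the 6800 to 6999 bp class, 511.5 bp at 7000 to 7199 bp, 604.5 bp in all pairs outside the class and 566 bp under 4 kb. Over 8 kb it was 653 bp. The side of the midpoint depends on peak width as well as on this distance. Median widths were 2136.5 bp in the class, 1387 bp in the other pairs and 1174 bp over 8 kb. Peaks of equal width were not compared, so the part of width was not tested.

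Nearly all flanks were found in both replicates, as were nearly all wide peaks. The replicated list was made from the replicates' lists, and 1 shared base counted as overlap, so this overlap is partly built in. Both flanks were overlapped by peaks of both replicates in 1180 of 1199 pairs (98.4%), including all 225 of the 6800 to 6999 bp class. Among all consecutive wide peaks the share was 97.4%. Counted as single peaks, 99.2% of the flanks, 98.6% of all wide peaks and 79.0% of all replicated peaks were overlapped by both. The longest peak-free stretch of a pair differed less between replicates in the class. It measured 6973 bp (replicate 1) and 6895 bp (replicate 2) at the median. Within a pair the replicates differed by a median of 77 bp. In the other pairs the median difference was 357 bp. Between other consecutive peaks it was 193 bp for gaps of 6800 to 6999 bp and 361 bp for all gaps of 4 to 8 kb. A peak inside the gap shortens the stretch, so these values do not measure the gap edges alone.

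The gaps of the class held fewer peaks than those of the other pairs. No peak of either replicate lay wholly inside 186 of 225 gaps (82.7%, exact 95% interval 77.1 to 87.4%), against 556 of 974 in the other pairs (57.1%). Over all pairs the count was 742 (61.9%), and for the 8803 gaps between other consecutive peaks the share was 50.8%. Among the 490 of those gaps that were 6800 to 6999 bp long it was 61.4%. The pooled list had a peak in 28 class gaps (12.4%), in 37.8% of the other pairs' gaps and in 44.5% of the gaps between other consecutive peaks. For the 490 of class length the pooled share was 36.1%. The median fold enrichment of those inner peaks was 3.2 in the class and 2.85 in the other pairs. Over all pairs 310 gaps held a peak of replicate 2 only and 74 a peak of replicate 1 only. The replicate 2 list was the longer, with 191011 peaks against 156997, and its part in this difference was not tested.

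The same libraries were also deposited as broad regions on mm9, with borders on a grid of 200 bp, and these gave another picture. Applied to the bases covered in both replicates, the rule found 3653 pairs on mm9 with no rise near 6.8 kb: 172 gaps fell in that bin against a median of 180 in the others. In replicate 1 the numbers were 167 and 180, and in replicate 2 they were 221 and 253. Coordinates were not converted, so mm10 pairs cannot be looked up one by one on mm9.

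Direct repeats of the mm9 sequence were most frequent at a pair of distances, and the longer one lay just under the most frequent gap. Of 7121 repeats, 575 had their copies 5900 to 5999 bp apart, and 554 and 288 had them 6700 to 6799 and 6800 to 6899 bp apart, against a median bin of 91.5 between 4 and 8 kb. The 992 repeats at 6600 to 6899 bp had copies with a median of 354 bp and spanned 7120 bp in all. The median distance between their copies was 6760 bp. The range 6800 to 6999 bp lies wholly between that distance and the whole length. The median gap of the class, 6898 bp, had to fall there too, so its place is no separate result. The repeats at 5900 to 5999 bp had copies with a median of 493 bp and spanned 6435 bp. No rise like that at 6800 to 6999 bp was seen in the pairs at these lengths. They had 36 gaps at 5800 to 5999 bp, 57 at 6000 to 6199 bp, 59 at 6200 to 6399 bp and 44 at 6400 to 6599 bp. The median of the bins outside the class was 51.

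**Figure D4:**
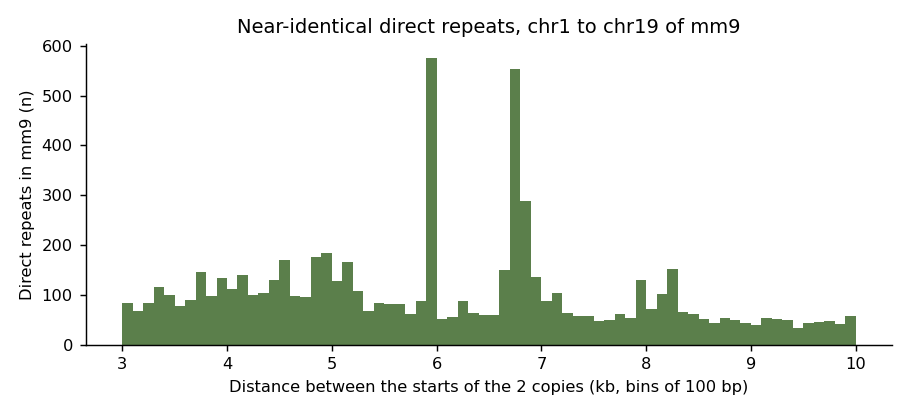
Number of direct repeats in the mm9 sequence of chromosomes 1 to 19, by the distance between the starts of their copies in bins of 100 bp. The highest bars are at 5900 to 5999 bp, with 575 repeats, and at 6700 to 6799 bp, with 554.

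The mm9 regions covered both the copies and the inner part of the 6600 to 6899 bp repeats. Of the inner part, 85.0% of the bases were covered in replicate 1 and 86.0% in replicate 2, or 85.5% ± 0.748 (SD, n = 2). The first copy was covered to 83.2% and 85.0%, and the 1 kb outside each end to 58.6% in both. In the repeats at 5900 to 5999 bp the inner part was covered to 59.4% and 68.7%, the first copy to 32.9% and 34.3%, and the outside to 17.5% and 18.1%. The mm10 gaps are free of replicated peaks by the rule, so their low cover cannot be set against these values. Assembly and kind of peak list differ between both sets, how reads matching several places were treated is not stated, and their part was not tested.

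Promoters allow single loci to be followed. Of 38 promoters in the gaps of pairs that had a single exact match in mm9, 10 were overlapped there by regions of both replicates (26.3%, exact 95% interval 13.4 to 43.1%), against 7.62% of those in gaps between other consecutive peaks and 2.84% of all promoters. In flanks the count was 41 of 44 (93.2%), against 44.2% in flanks of the other gaps. Several promoters were alternative starts of 1 gene in 1 gap or flank, so the 10 came from 8 genes and the 41 from 34, and the intervals treat them as separate. In gaps of 6800 to 6999 bp, 3 promoters had a single match, and only that of Gm33130, whose start lay 6 bp from the gap edge, was overlapped in both replicates. Among the gap promoters were those of S100a3, a calcium-binding protein, and Synpo2, an actin-binding protein, neither of which was overlapped on mm9. The flank promoters overlapped in both replicates included that of Hmox2, a haem oxygenase, and H2-Ob, a chain of an MHC class II accessory protein. These genes were picked after their values were seen.

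In base composition the mm9 gaps of 4 to 8 kb were AT-rich and repetitive, but less repetitive than their flanks. GC content was 40.3% in the gaps, 42.3% in the flanks and 41.9% over the chromosomes. CpG dinucleotides numbered 6.57 per kb in the gaps, 10.2 in the flanks and 8.51 over the chromosomes. Gaps of 2 to 4 kb (40.2% GC, 7.05 CpG per kb) and of 8 to 12 kb (40.3%, 6.41) had similar values. Bases starting a 16-base word present at least 50 times in mm9 made up 31.3% of the gaps, 48.8% of the flanks and 18.1% of the chromosomes. All mm9 regions covered in both replicates had 42.4% GC, 10.6 CpG per kb and 50.4% of such bases, close to the flanks. In gaps the share of such bases fell with length, from 39.7% in gaps of 2 to 4 kb to 26.8% in gaps of 8 to 12 kb. A direct repeat had its copies at both edges of 21 of 3653 gaps (0.575%), against 0.962% of gaps of 2 to 4 kb and 0.136% of gaps of 8 to 12 kb. Copies nearer or further apart than the search range for direct repeats could not be found. That range cuts into the shorter and the longer gaps compared here, so these shares cannot show a change with gap length.

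The pairs were spread over all chromosomes used. Chromosome 1 held the most, 107, and chromosome 19 the fewest, 13. Per Mb the number ranged from 0.223 on chromosome 19 to 0.690 on chromosome 10. The 6800 to 6999 bp class was present on every one of them, from 4 pairs on chromosomes 17 and 19 to 20 on chromosome 10. Of windows of 1 Mb with a pair, 545 held 1, 20 held 4 and 2 held 5. The windows with 5 pairs were chr5:38000001-39000000, which holds Slc2a9, Stx18 and Nsg1, and chr15:97000001-98000000, where the pairs touched the RefSeq gene Gm32840. The next windows in order included pairs at Trak1 and Ulk4 on chromosome 9, Tafa5 on chromosome 15 and Gm31889 on chromosome 5.

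The pairs lay in gene bodies about as often as other gaps did. Of the pairs, 247 lay wholly inside a protein-coding gene body (20.6%), and of the 6800 to 6999 bp class 51 did (22.7%, exact 95% interval 17.4 to 28.7%). The share was 19.4% for the 8803 gaps between other consecutive peaks taken with their flanks. Exon positions were not used, so exonic and intronic bases are not told apart. The 247 pairs lay in 237 genes, of which 15 held at least 2, and the genes with the most are long.

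Cdh13, which encodes a cell adhesion protein of the cadherin family, held 4 pairs in a body of 1184.913 kb (chr8:118140017-119324929, mm10). The gaps were 6604, 6940, 5428 and 6958 bp. The strongest pair, with the gap of 6958 bp, had a left flank of 13.8 and a right flank of 14.3. Its left flank had a value of 7.03 in replicate 1 and 16.7 in replicate 2, and its right flank 8.32 and 18. Neither replicate had a peak in this gap. The pair with the gap of 6940 bp was weaker, at 5.85, and replicate 2 had 1 peak inside.

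Trak1, which encodes an adaptor that links mitochondria to kinesin, held 3 pairs (chr9:121297502-121474919), 2 of them among the 10 strongest of all. The first had a gap of 5851 bp between flanks of 6839 and 6795 bp with folds of 26.7 and 22.2. Its left flank had 20.0 in replicate 1 and 27.5 in replicate 2. The other had a gap of 6862 bp between flanks of 21.8 and 26, and its peak-free stretch measured 6862 bp (replicate 1) and 6890 bp (replicate 2). The promoter of a Trak1 transcript lay in the left flank of this pair, 3087 bp from the gap, and mm9 regions of both replicates covered all of it. The promoter held none of the 16-base words found in at least 10 of the 992 direct repeats.

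Slc2a9, a urate and sugar transporter gene, held 3 pairs (chr5:38349272-38503147), of which the strongest had a gap of 6930 bp and flanks of 22.5 and 23.4. The left flank of that pair had 13.4 in replicate 1 and 26 in replicate 2. The other 2 pairs shared a flank, with gaps of 5188 and 4274 bp. Col23a1, a collagen gene, Macrod2, Tiam1, an activator of the GTPase Rac, Asic2, an ion channel gene, Rgs7bp and Celf2, an RNA-binding protein gene, held 2 each. Their strongest pairs had weaker flanks between 7.72 in Celf2 and 19.4 in Col23a1. The 2 Tiam1 pairs had gaps of 7024 and 6971 bp, and their weaker flanks were 15 and 2.82.

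The 10 pairs with the highest weaker flank had values from 21.8 to 28.5, and 5 of them had a gap of 6800 to 6999 bp. The highest lay on chromosome 17 with a gap of 4768 bp (flanks chr17:27263772-27265036 and chr17:27269805-27275441), 58.3 kb from Lemd2, a nuclear envelope protein gene. Its left flank had 19.8 in replicate 1 and 35.3 in replicate 2, and its right flank 20.1 and 35.8. The second had a gap of 6872 bp on chromosome 8 (chr8:120191364-120192709 and chr8:120199582-120201198), 13.9 kb from Cibar2, with folds of 28.5 and 24.8. Its left flank had 17.8 and 32.7 in the replicates. The third lay inside Tenm4, a teneurin gene, with a gap of 6875 bp and folds of 24.3 and 24.8. The fourth, with a gap of 6937 bp, ended 0.893 kb from Srgap3, and the fifth lay inside Shc4 with a gap of 4785 bp. In 8 of the 10 gaps neither replicate had a peak.

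Of 20661 protein-coding genes, 306 (1.48%) were overlapped by a pair. Among the gene families and lists examined, zinc finger genes, many of which encode repressors of retroelements, had 11 of 418 overlapped (2.63%). The other 2 counts for zinc finger genes lay near or below those of all protein-coding genes. A pair lay wholly inside 5 of the 418 (1.20%), against 1.15% of all genes. Pairs of the class with the most frequent gap length overlapped 1 (0.239%), against 0.339% of all genes. Of the zinc finger genes with a pair wholly inside, the strongest was Zfp385c, with a gap of 6456 bp between flanks of 19.7 and 31.1. Zfp277 held a pair with a gap of 6867 bp and flanks of 15.6 and 25.7. The right flank at Zfp277 had 13.1 in replicate 1 and 27.9 in replicate 2. The pair inside Zfp869 was weaker, with flanks of 5.85 and 12.6 and 2 peaks of replicate 2 in the gap. Protocadherin genes, which encode neuronal adhesion proteins, had 7 of 57 overlapped (12.3%), all by a single pair in the Pcdha cluster, with a gap of 6956 bp and flanks of 14.6 and 17.4. Those 7 genes share the sequence of that pair and are not separate observations.

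The other lists had 0 to 2 genes overlapped. Olfactory receptor genes had 2 of 1104 overlapped (0.181%), namely Olfr784, with a gap of 7047 bp and flanks of 12.7 and 15.2, and Olfr1388, with a gap of 7269 bp. Vomeronasal receptor genes had 1 of 354, Vmn2r60 (0.282%), with a gap of 5237 bp and flanks of 16.5 and 14.4. Cytochrome P450 genes had 2 of 99 (2.02%), Cyp2j13 and Cyp2j5. Serpins had 1 of 62 (1.61%), Serpinb6b, with a gap of 6923 bp, and natural killer receptor genes had 1 of 29 (3.45%), Klrb1f. Of 38 imprinted genes 2 were overlapped (5.26%), Kcnq1 and the antisense transcript Kcnq1ot1 within it, by a single pair with a gap of 4414 bp and flanks of 8.12 and 5.15. Of 31 germ cell genes, 1 was overlapped (3.23%), Tdrd9, which acts in the piRNA pathway, with a gap of 5371 bp. No pair overlapped any of 21 pluripotency, 28 lineage, 27 H3K9 machinery or 16 housekeeping genes. With 1.48% of all genes overlapped, a count of 0 in lists of 16 to 28 genes lies near the background.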

How the data were processed

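H3K9me3 peak lists of 2 biological replicates of 1 mouse embryonic stem cell line were analysed. Per the labels' file lists, the authors called 1 mm10 list per replicate and 1 on both, and made the replicated list from these. The fold enrichment of each peak is a linear ratio deposited by the authors, and −log10 q was deposited for each mm10 peak. The sources used here do not name the aligner, the peak caller or how reads with several matches were treated, and the last can add or remove peaks at repeats. The lists give no reads, so depth is unknown and intervals cover counting error only.

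Peaks on chromosomes 1 to 19 were sorted by start, and consecutive peaks at least 800 bp wide and 4000 to 8000 bp apart were paired. Peaks of the replicates were matched by an overlap of 1 base, and a flank was given the highest fold among its matched peaks. Genes and promoters (250 bases before to 50 after the start) came from RefSeq GRCm38.p6. Sequence came from mm9, where direct repeats were found from identical 32-base words 3000 to 10000 bp apart and kept where a copy was 200 to 1500 bp long. Shared 16-base words were those in at least 10 of the 992 repeats 6600 to 6899 bp apart. On simulated sequence with copies of 350 bp, the repeat finder recovered 25 of 25 planted repeats at 98% identity, 5 of 25 at 95% and 0 of 25 at 80%, so it finds near-identical copies only. Promoters on chromosome 18 were not analysed here. No coordinates were converted between builds. Python 3.11.15, numpy 2.4.6, pandas 2.3.3, scipy 1.17.1 and numba 0.67.0 were used, with exact Clopper-Pearson 95% intervals.

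The members and gene lists were chosen with earlier results of these data known. The text names the 10 pairs with the strongest weaker flank, the 10 protein-coding genes with the most pairs inside, at most 3 genes of each list, and at most 3 genes for each of the 5 windows of 1 Mb with the most pairs. A gene that this rule names is not reported here. Alternatives changed the list, the width, the gap range, the peak threshold, the merging of peaks and the overlap. No test between conditions was made, since all samples form 1 group.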

Additional observations from a re-analysis of the deposited data

Results flagged for a closer look

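The X chromosome lies outside the rule, and the same rule found 21 pairs there, which is 12.1% of its 174 consecutive wide peaks (exact 95% interval 7.63 to 17.9%). It is given here because it is a signal in data that the description above leaves out. Of the 21 pairs, 3 had a gap of 6800 to 6999 bp, and the median weaker flank had a fold enrichment of 5.70. The Y chromosome had 1 pair and the unplaced scaffolds none among 21 consecutive wide peaks.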

How the results depend on the processing

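The bin at 6800 to 6999 bp held between 11.2% (minimum width 500 bp) and 33.0% (gaps of 5 to 7 kb) of the pairs over the 9 alternatives, against 18.8%. Its ratio of weaker-flank medians to the other pairs ranged from 1.08 (replicate 1 list) to 2.27 (minimum width 500 bp). Both were computed with alternatives added after the data were seen. The number of pairs was 418 to 612 with 1 replicate's list. It was 3041 at a minimum width of 500 bp, 352 at 1500 bp, 2775 with peaks within 500 bp merged and 682 with gaps of 5 to 7 kb. The share of wide pairs in the gap range was 9.60 to 12.8% with 1 replicate's list and 9.94% in the pooled list. It was 8.70% at 500 bp, 19.7% at 1500 bp, 9.73% with folds of at least 4, 15.7% after merging and 6.05% for 5 to 7 kb. The share of other consecutive peaks was 7.99 to 8.48% with 1 replicate's list, 8.96% in the pooled list, 7.59% with −log10 q of at least 5, 7.01% with folds of at least 4, 11.6% after merging and 4.09% for 5 to 7 kb. The median gap was 6302 to 6540.5 bp with 1 replicate's list and 6334.5 bp at a minimum width of 1500 bp. The median flank fold was 9.62 to 12.9 with 1 replicate's list, 5.65 at 500 bp and 14.1 at 1500 bp. Both flanks were found in both replicates in 88.5% of pairs at 500 bp, 100% at 1500 bp, 99.4% with folds of at least 4, 97.3% after merging, 99.1% for 5 to 7 kb and 78.8% when 50% of each flank had to be covered. Gaps without a replicate peak made up 85.9% in the pooled list, 57.3% at 500 bp, 78.1% at 1500 bp, 54.0% with −log10 q of at least 5, 44.5% with folds of at least 4, 55.1% after merging and 94.9% when at least 10% of the gap had to be covered. Pairs inside a gene body made up 23.3% at 1500 bp and 17.1% after merging. The cause of these shifts was not tested. Of 87 recomputed values, 34 stayed within a set limit around the value reported and 53 moved. The limit was the interval for shares and the SD between replicates for medians and their ratio. For the number of pairs it was a fixed ratio, not a spread or interval. No paired analysis was possible because all samples form 1 group. With 2 replicates of 1 cell line, no control library analysed and no reads, the values describe these peak lists, and strength, width and the rule are not independent.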
